A study of Arabidopsis thaliana with 12 samples.

Results

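In Arabidopsis thaliana seedlings, some transcripts had average differences of opposite sign, each at least 0.2 (log2), with supplemental far-red light and with warmth. The samples were aerial parts of the wild-type accession Columbia, with no mutant or transgene in any group, taken from 10-day-old plants. After 9 days in continuous white light at 22 °C, the plants spent 24 h in 1 of 4 conditions: white light with supplemental far-red (WFR) at 26 °C, WFR at 22 °C, white light alone (WL) at 26 °C, or WL at 22 °C. Each condition had 3 arrays labelled as biological replicates, 12 in all. How the plants of these were grown apart or pooled is not stated, so p-values measure the spread between these samples. A probe set is a group of short probes that reports 1 or a few transcripts, and each array gave 1 log2 value per probe set, so that a difference of 1 is a doubling.

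The far-red difference was WFR minus WL, averaged over both temperatures. The temperature difference was 26 °C minus 22 °C, averaged over both lights. Members were selected on these measured values: a probe set was taken if the 2 differences had opposite signs and each was at least 0.2 in size. The rule chose 198 of 22746 probe sets (0.87%). Of these, 75 were higher with far-red and lower at 26 °C, and 123 were lower with far-red and higher at 26 °C. By sign alone, without the threshold, 29.7% of all probe sets fell in the first direction and 22.8% in the second. A single gene could be named for 39 of the 75 and 49 of the 123, several genes for 2 and 4, and 34 and 70 are unnamed here. The cytokinin response regulators RR16 and ARR15 were left out by name. Of these, only RR16 met the thresholds, with a far-red difference of 0.41 and a temperature difference of -0.52, while ARR15 had 0.01 and -0.27.

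Because the far-red and temperature differences chose the members, they are given as descriptions and carry no test. The interaction, the far-red difference at 26 °C minus that at 22 °C, was not used by the rule and is the contrast tested below. It is independent of both averages only as far as the arrays of all conditions vary alike.

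As background, plants sense neighbours through phytochromes, red and far-red light receptors that far-red light turns to their inactive form. Active phytochrome B restrains growth-promoting bHLH transcription factors, the phytochrome-interacting factors. Warmth also speeds the loss of active phytochrome B, so shade and warm temperature share part of a pathway and both promote stem and petiole elongation. The members are probe sets on which these signals had average differences of opposite sign, each at least 0.2 in size.

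The plot of both differences shows where the members lie among all probe sets. In the far-red-higher direction the far-red difference had a median of 0.27 (0.20 to 2.48) and the temperature difference a median of -0.28 (-0.97 to -0.20). In the far-red-lower direction the medians were -0.29 (-1.11 to -0.20) and 0.34 (0.20 to 2.53). Over all probe sets they were 0.01 and -0.01. Most members lay near the thresholds, and both differences reached 0.3 in 13 of the 75 and 40 of the 123.

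**Figure D1:**
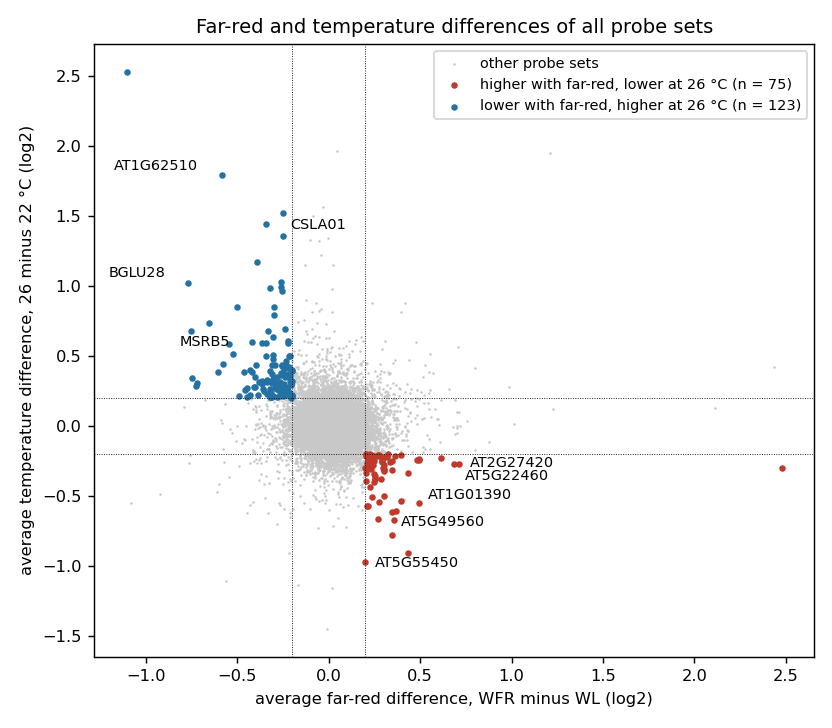
Average far-red difference (WFR minus WL, log2, horizontal) against average temperature difference (26 °C minus 22 °C, log2, vertical) for all probe sets, with dotted lines at 0.2 and -0.2. The 75 members higher with far-red (red) lie at the lower right and the 123 members lower with far-red (blue) at the upper left; 1 unnamed probe set stands apart at a far-red difference of 2.48.

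The rule has a sharp edge in a crowded region. Just inside it were AT5G64600, with a far-red difference of 0.20 and a temperature difference of -0.20, and AT5G57150, with -0.20 and 0.22. Just outside it were AT5G63180 (0.26 and -0.1995) and AT5G03130 (0.1974 and -0.30). Leaving out each array in turn kept 23 of the 75 and 47 of the 123 within the thresholds every time. Under each of 4 other scalings of the arrays, 42 of the 75 and 118 of the 123 stayed members.

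The arrays had medians of 6.91 to 7.01 and correlations across probe sets of 0.99526 to 0.99786 within a condition and 0.99328 to 0.99766 between conditions. The green tissue markers that could be checked, RCA (rubisco activase) and LHCB4.1 (an antenna protein of photosystem II), were among the brightest transcripts at mean log2 values of 14.45 and 14.04. Only 2 of the 18 genes on that marker list were measured. Of the 18 root markers 2 were measured, LBD29 at 4.38 and PYK10, a beta-glucosidase, at 11.94. PYK10 averaged 12.02 in WFR at 26 °C, 11.95 in WFR at 22 °C, 12.14 in WL at 26 °C and 11.67 in WL at 22 °C, and its part in the results was not tested. In whole aerial parts, fewer cells of a type and less RNA per cell cannot be told apart.

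The directions differed in how even the replicate arrays were. Averaged over the 75 far-red-higher members, the deviation from each probe set's own mean was -0.07, -0.08 and -0.02 on the WFR 26 °C arrays and 0.36, 0.40 and 0.38 on the WFR 22 °C arrays. It was -0.30, -0.30 and -0.25 on the WL 26 °C arrays and -0.07, -0.09 and 0.04 on the WL 22 °C arrays. Averaged over the members in this way, replicates lay close together in every condition of this direction, which does not show the spread of single members. WL 22 °C replicate 3 was the highest of its condition for 48 of the 75, against 46.7% of all probe sets.

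The 123 far-red-lower members were less even. Their mean deviations were -0.03, 0.27 and -0.06 on the WFR 26 °C arrays and -0.44, -0.28 and -0.45 on the WFR 22 °C arrays. They were 0.27, 0.30 and 0.61 on the WL 26 °C arrays and -0.02, -0.13 and -0.03 on the WL 22 °C arrays. WFR 26 °C replicate 2 and WL 26 °C replicate 3 stood above the other arrays of their condition.

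WFR 26 °C replicate 2 was the highest of its condition for 84 of the 123 (68.3%), against 27.1% of all probe sets. WL 26 °C replicate 3 was the highest for 79 (64.2%), against 33.3% of all probe sets. Each array lay at least 0.5 above the mean of its condition's other arrays for 28 members, and 19 members were the same for both arrays. The remaining 86 members had neither gap. WFR 22 °C replicate 2 also stood above its condition, as the highest for 64 of the 123 (52.0%), against 25.5% of all probe sets. It lay at least 0.5 above for 17 (13.8%), against 0.752% of all probe sets. Without that array the rule gave 182 far-red-lower members, of which 115 were among the 123. The average differences of the named far-red-lower genes are given below with and without the 2 arrays at 26 °C.

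**Figure D2:**
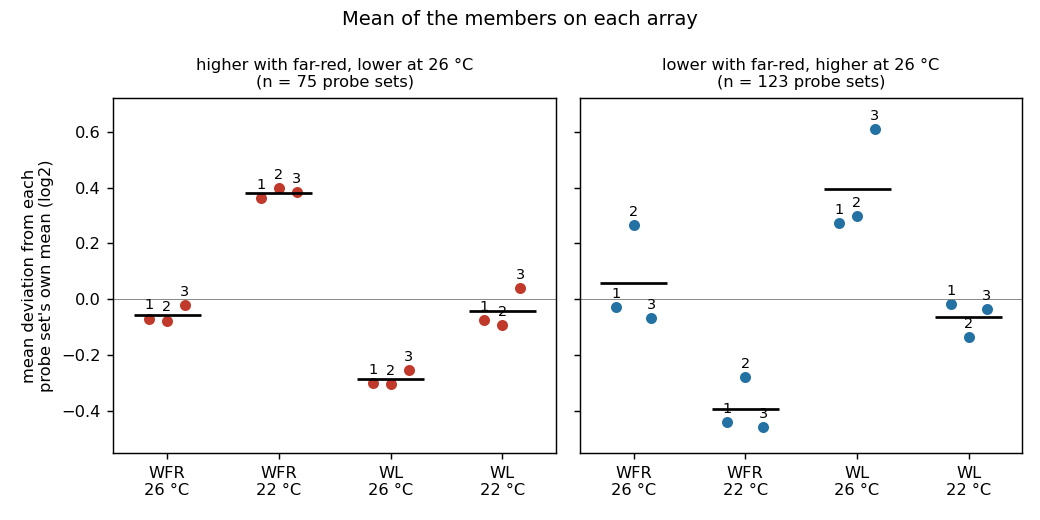
Mean deviation of the members from each probe set's own mean (log2, vertical) on each of the 12 arrays, by condition, for the 75 far-red-higher members (left) and the 123 far-red-lower members (right). Points are arrays with their replicate number and bars are condition means; replicates sit together on the left, while WFR 26 °C replicate 2 (0.27) and WL 26 °C replicate 3 (0.61) sit above the rest of their conditions on the right.

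In the far-red-higher direction, WFR at 22 °C had the highest mean of the 4 conditions for all 75 members and WL at 26 °C the lowest for 67. Over all probe sets these shares were 28.9% and 28.5%, and the rule itself favours this order. All 3 WFR 22 °C arrays lay above all 3 WL 26 °C arrays for 72 of the 75, against 14.7% of all probe sets. All 4 single comparisons, far-red at each temperature and warmth in each light, had groups that did not overlap for 10 of the 75, against 0.163% of all probe sets. These 10 include ATSPS4F, AT5G49560, AT1G01390, AT5G22460 and AT5G26790. The rule favours such separation of the arrays too, so these counts describe the members and test nothing. At the other end, the groups overlapped in all 4 single comparisons for 2 of the 75 and in all but 1 for 7.

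ATSPS4F encodes a sucrose-phosphate synthase, the enzyme that commits hexose phosphates to sucrose. Its log2 values were 10.15, 10.33 and 10.41 in WFR at 26 °C and 10.61, 10.69 and 10.75 in WFR at 22 °C, against 10.02, 10.08 and 10.12 in WL at 26 °C and 10.27, 10.42 and 10.23 in WL at 22 °C. The WFR 22 °C arrays were the highest and the WL 26 °C arrays the lowest, with no overlap in any of the 4 single comparisons. The far-red difference was 0.30 ± 0.0566 (standard error of the model, SE), a 1.23-fold higher level, and the temperature difference was -0.31 ± 0.0566. WFR at 26 °C differed from WL at 22 °C by -0.01.

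AT5G49560, of a putative methyltransferase family, had 6.83, 6.62 and 6.60 in WFR at 26 °C and 7.27, 7.32 and 7.44 in WFR at 22 °C. It had 6.31, 6.39 and 6.44 in WL at 26 °C and 6.75, 6.94 and 7.16 in WL at 22 °C. No groups overlapped in the single comparisons here either. The temperature difference of -0.61 ± 0.0691 (SE) was larger in size than the far-red difference of 0.34 ± 0.0691, so that WFR at 26 °C stayed 0.27 below WL at 22 °C.

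AT1G01390, a UDP-glycosyltransferase, is the far-red-higher gene whose smaller difference was the largest. Its values were 5.57, 5.76 and 5.61 in WFR at 26 °C and 6.27, 6.32 and 6.54 in WFR at 22 °C, against 5.41, 5.33 and 5.27 in WL at 26 °C and 5.48, 5.66 and 5.97 in WL at 22 °C. The far-red difference was 0.49 ± 0.079 (SE), or 1.41-fold, and the temperature difference was -0.55 ± 0.079, or 1.46-fold lower at 26 °C. The far-red difference was 0.31 at 26 °C and 0.67 at 22 °C.

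AT5G22460, of the alpha/beta hydrolase family, had its larger difference with far-red, with a far-red difference of 0.68 ± 0.0686 (SE) and a temperature difference of -0.27 ± 0.0686. Its values were 7.62, 7.78 and 7.80 in WFR at 26 °C and 8.29, 7.89 and 8.12 in WFR at 22 °C, against 7.12, 7.20 and 7.12 in WL at 26 °C and 7.46, 7.22 and 7.28 in WL at 22 °C. AT5G26790 had nearly equal differences in each setting. Its far-red difference was 0.26 at 26 °C and 0.25 at 22 °C, and its temperature difference was -0.35 in WFR and -0.36 in WL.

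AT2G27420, a papain-type cysteine protease, had the largest far-red difference of the named far-red-higher genes, 0.71 ± 0.122 (SE). Its values were 6.88, 7.06 and 7.00 in WFR at 26 °C and 7.68, 8.13 and 7.40 in WFR at 22 °C, against 6.70, 6.59 and 6.99 in WL at 26 °C and 6.87, 6.26 and 6.49 in WL at 22 °C. Only the WFR 22 °C arrays stood out. The far-red difference was 0.22 at 26 °C and 1.2 at 22 °C, and the temperature difference was -0.76 in WFR but 0.22 in WL, the opposite sign.

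AT1G78450, a SOUL-type heme-binding protein, also had its highest values on the WFR 22 °C arrays. Its far-red difference was 0.07 at 26 °C and 0.72 at 22 °C. Its temperature difference was -0.86 in WFR and -0.21 in WL, here of the same sign. AT3G15650 (alpha/beta hydrolase family) had a far-red difference of -0.17 at 26 °C and 0.66 at 22 °C. In AT5G18460 these were -0.10 and 0.58. For these genes the opposite averages came mostly from the WFR 22 °C arrays.

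The remaining far-red-higher genes had smaller or less even differences. AT3G50900, AT5G41060 (a DHHC-type palmitoyltransferase family) and AT2G40010 (the P0 family of acidic ribosomal proteins) had far-red differences of 0.35, 0.34 and 0.25 and temperature differences of -0.31, -0.26 and -0.38. AT5G59670, a leucine-rich repeat receptor-like kinase, was dim, with means of 4.32 in WFR at 26 °C, 5.08 in WFR at 22 °C, 4.27 in WL at 26 °C and 4.59 in WL at 22 °C. AT1G01320 was the sole named gene with a second probe set. Its member probe set had 0.25 and -0.38 for the far-red and temperature differences, and the other had 0.09 and -0.17, of the same signs but short of the thresholds.

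AT5G55450, of the lipid-transfer protein family and on the salicylate and immune list, had by far its larger difference with temperature. Its values were 8.55, 8.27 and 8.21 in WFR at 26 °C and 9.46, 9.49 and 9.08 in WFR at 22 °C, against 8.22, 8.14 and 8.15 in WL at 26 °C and 9.26, 9.17 and 8.91 in WL at 22 °C. The 26 °C arrays were all below the 22 °C arrays, while WFR and WL overlapped at each temperature. Its far-red difference of 0.20 ± 0.0844 (SE) lay on the threshold, and its temperature difference was -0.97 ± 0.0844. It stayed a member in 6 of the 12 fits that left out 1 array and under none of the 4 other scalings.

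**Figure D3:**
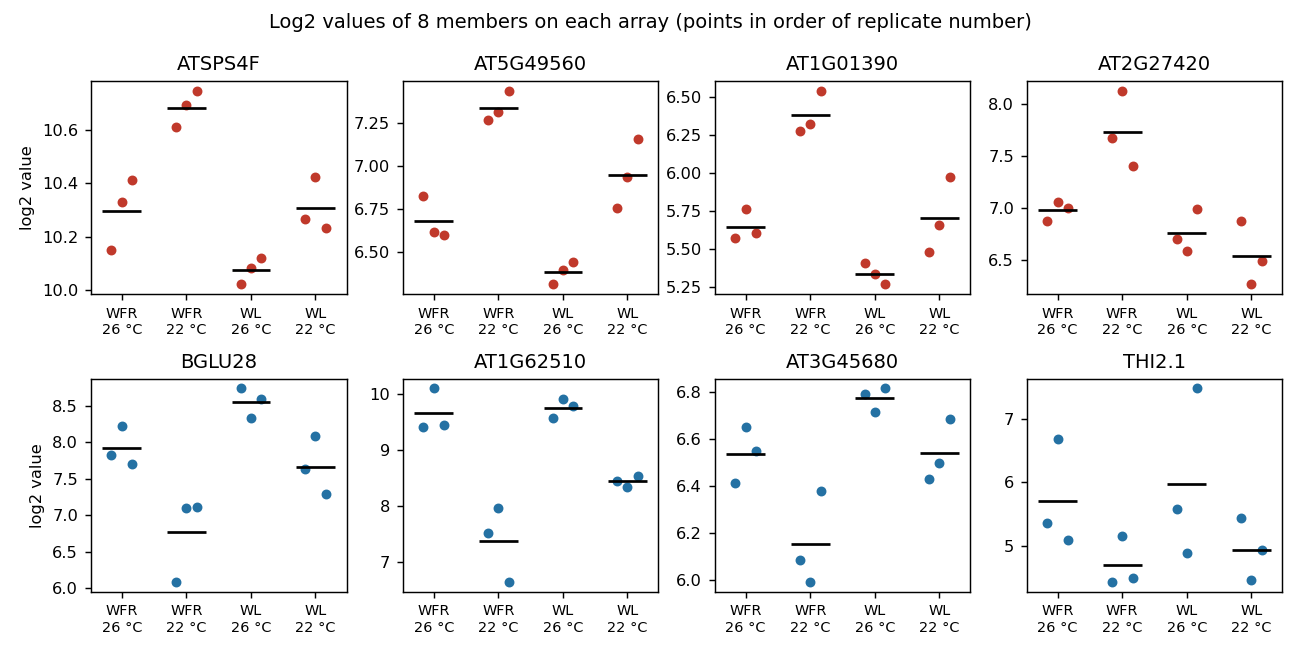
Log2 values (vertical, a separate scale in each panel) of 8 members on each array, with bars for the condition means. The upper 4 genes are far-red-higher, with the WFR 22 °C mean on top, and the lower 4 are far-red-lower, with the WFR 22 °C mean lowest; the highest THI2.1 values are 7.48 on WL 26 °C replicate 3 and 6.67 on WFR 26 °C replicate 2.

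In the far-red-lower direction the order was turned round. WFR at 22 °C had the lowest mean of the 4 conditions, with all arrays in, for 114 of the 123 members and WL at 26 °C the highest for 118, against 26.3% and 19.5% of all probe sets. All 3 WFR 22 °C arrays lay below all 3 WL 26 °C arrays for 104 of the 123, against 9.4% of all probe sets. No groups overlapped in the 4 single comparisons for 11, against 0.106% of all probe sets. Only 2 of these 11, BGLU28 and AT3G45680, have a single gene. The rule itself favours this order and this separation of the arrays, so these counts describe the members and test nothing. At the other end, the groups overlapped in all 4 single comparisons for 23 of the 123 and in all but 1 for 25.

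BGLU28, a beta-glucosidase that acts on glucosinolates and is induced by sulfur deficiency, was the far-red-lower gene whose smaller difference was the largest. Its values were 7.83, 8.23 and 7.71 in WFR at 26 °C and 6.08, 7.09 and 7.12 in WFR at 22 °C, against 8.74, 8.33 and 8.60 in WL at 26 °C and 7.63, 8.08 and 7.29 in WL at 22 °C. The far-red difference was -0.77 ± 0.177 (SE), a 1.7-fold lower level, and the temperature difference was 1.02 ± 0.177, a 2.03-fold higher level at 26 °C. Without WL 26 °C replicate 3 and WFR 26 °C replicate 2 these were -0.83 and 0.93.

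AT3G45680, of the nitrate and peptide transporter family (NPF), had 6.41, 6.65 and 6.55 in WFR at 26 °C and 6.09, 5.99 and 6.38 in WFR at 22 °C. It had 6.79, 6.72 and 6.82 in WL at 26 °C and 6.43, 6.50 and 6.68 in WL at 22 °C. Its far-red difference of -0.31 ± 0.0713 (SE) and temperature difference of 0.31 ± 0.0713 were equal in size, and its mean was 6.54 both in WFR at 26 °C and in WL at 22 °C. Without the 2 arrays the differences were -0.33 and 0.27.

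AT1G62510, of the lipid-transfer and seed storage albumin family, had the largest temperature difference of any named member, 1.79 ± 0.178 (SE), or 3.46-fold. Its values were 9.41, 10.10 and 9.45 in WFR at 26 °C and 7.52, 7.96 and 6.65 in WFR at 22 °C, against 9.56, 9.91 and 9.78 in WL at 26 °C and 8.46, 8.35 and 8.53 in WL at 22 °C. WFR and WL overlapped at 26 °C but not at 22 °C. The far-red difference was -0.10 at 26 °C and -1.07 at 22 °C, with an average of -0.58. Without the 2 arrays the average differences were -0.69 for far-red and 1.67 for temperature.

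MSRB5, a methionine sulfoxide reductase that repairs oxidised methionine, was the brightest of the named members. Its values were 11.01, 11.43 and 10.90 in WFR at 26 °C and 10.39, 10.36 and 10.79 in WFR at 22 °C, against 11.60, 11.48 and 11.51 in WL at 26 °C and 11.12, 11.12 and 10.58 in WL at 22 °C. Its far-red difference was -0.42 at each temperature, and its temperature difference was 0.60 in WFR and 0.59 in WL. Without the 2 arrays its average differences were -0.51 and 0.52. MSRB6, the next protein-coding gene along the chromosome and a related reductase, was also a member, with a far-red difference of -0.30 and a temperature difference of 0.22. It was not in the naming rule and was picked after its values were seen, and cross-hybridisation between such related genes was not tested.

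QQS, an orphan gene known to affect starch content, had a mean of 6.88 ± 0.41 in WFR at 26 °C, 6.35 ± 0.16 in WFR at 22 °C, 7.19 ± 0.37 in WL at 26 °C and 6.72 ± 0.054 in WL at 22 °C (SD, n = 3 each). Its far-red and temperature differences were -0.34 and 0.50, or -0.45 and 0.51 without the 2 arrays. SWEET17, a fructose transporter of the vacuole membrane, averaged 8.70 ± 0.031 in WFR at 26 °C, 8.52 ± 0.06 in WFR at 22 °C, 9.01 ± 0.23 in WL at 26 °C and 8.67 ± 0.16 in WL at 22 °C (SD, n = 3 each). Its far-red and temperature differences were -0.23 and 0.26, or -0.19 and 0.22 without those arrays. AT1G56300, a DnaJ-domain protein, had differences of -0.40 and 0.35, and AT1G13650 had -0.37 and 0.60. Both kept their size without those arrays, at -0.41 and 0.37 for AT1G56300 and -0.33 and 0.59 for AT1G13650.

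AT1G66100, of the thionin family of small antimicrobial peptides, had its larger difference with far-red. Its values were 10.47, 10.66 and 10.83 in WFR at 26 °C and 10.49, 10.05 and 9.78 in WFR at 22 °C, against 10.95, 11.04 and 11.62 in WL at 26 °C and 11.20, 10.83 and 11.15 in WL at 22 °C. Every WFR array lay below every WL array at the same temperature, while the temperatures overlapped in each light. The far-red difference was -0.75 ± 0.132 (SE) and the temperature difference 0.34 ± 0.132, against -0.65 and 0.24 without WL 26 °C replicate 3 and likewise without both arrays.

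THI2.1, a jasmonate-inducible thionin, had 5.36, 6.67 and 5.09 in WFR at 26 °C and 4.43, 5.15 and 4.49 in WFR at 22 °C, against 5.57, 4.89 and 7.48 in WL at 26 °C and 5.43, 4.45 and 4.93 in WL at 22 °C. The groups overlapped in all 4 single comparisons. Its far-red difference was -0.26 ± 0.375 (SE), which became 0.11 without WL 26 °C replicate 3 and -0.13 without both arrays. Its temperature difference was 1.03 ± 0.375, or 0.66 without WL 26 °C replicate 3 and 0.41 without both.

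AT5G05600 and JRG21 encode 2-oxoglutarate-dependent oxygenases that hydroxylate jasmonic acid. JRG21 had 4.71, 6.01 and 4.73 in WFR at 26 °C and 4.63, 4.50 and 4.34 in WFR at 22 °C, against 5.51, 5.28 and 6.59 in WL at 26 °C and 4.68, 4.36 and 4.41 in WL at 22 °C. The highest array of each 26 °C condition was again WFR replicate 2 or WL replicate 3. The temperature difference of JRG21 was 0.98 ± 0.232 (SE), or 0.57 without both arrays. Its far-red difference was -0.32 ± 0.232, or -0.12 without WL 26 °C replicate 3 alone and -0.34 without both. With all arrays in, this was -0.65 at 26 °C and 0.004 at 22 °C. For AT5G05600 the temperature difference was 1.17 ± 0.288 (SE), or 0.82 without both. Its far-red difference was -0.39 ± 0.288, or -0.23 without WL 26 °C replicate 3 alone and -0.42 without both. In both genes WFR and WL overlapped at each temperature.

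AT5G64120, a class III peroxidase, ranged most widely within a condition, with 8.16, 9.05 and 5.97 in WFR at 22 °C. Its other values were 8.38, 8.82 and 7.67 in WFR at 26 °C, 8.35, 8.25 and 9.56 in WL at 26 °C, and 8.19, 8.14 and 9.21 in WL at 22 °C. The groups overlapped in all 4 single comparisons. Its far-red difference was -0.61 ± 0.425 (SE), or -0.40 without WL 26 °C replicate 3 alone and -0.53 without both. Its temperature difference of 0.39 ± 0.425 became 0.04 without the 2 arrays and -0.05 without WFR 22 °C replicate 3.

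2 cell wall genes were also far-red-lower members. CSLA01, of the glucomannan synthase family, had 7.42, 8.19 and 7.33 in WFR at 26 °C and 6.61, 6.36 and 6.60 in WFR at 22 °C, against 7.64, 8.20 and 8.53 in WL at 26 °C and 7.10, 6.38 and 6.16 in WL at 22 °C. The temperatures did not overlap in either light. Its temperature difference was 1.35 ± 0.186 (SE), or 1.12 without the 2 arrays, and its far-red difference was -0.25 ± 0.186, or -0.15 without WL 26 °C replicate 3 and -0.29 without both. EXLA1, an expansin-like protein, had -0.41 ± 0.18 and 0.28 ± 0.18 (SE) with groups that overlapped in all 4 single comparisons, and -0.45 and 0.10 without both arrays.

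AT2G04460 had -0.34 and 0.32 with overlap in all 4 single comparisons, and -0.21 and 0.38 without the 2 arrays. AT4G15390, of the HXXXD acyltransferase family, had a far-red difference of -0.43 and a temperature difference of 0.22, or -0.41 and 0.07 without the 2 arrays. It stayed a member in 6 of the 12 fits that left out 1 array. The condition means of these 2 genes were 4.94 to 5.72.

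**Figure D4:**
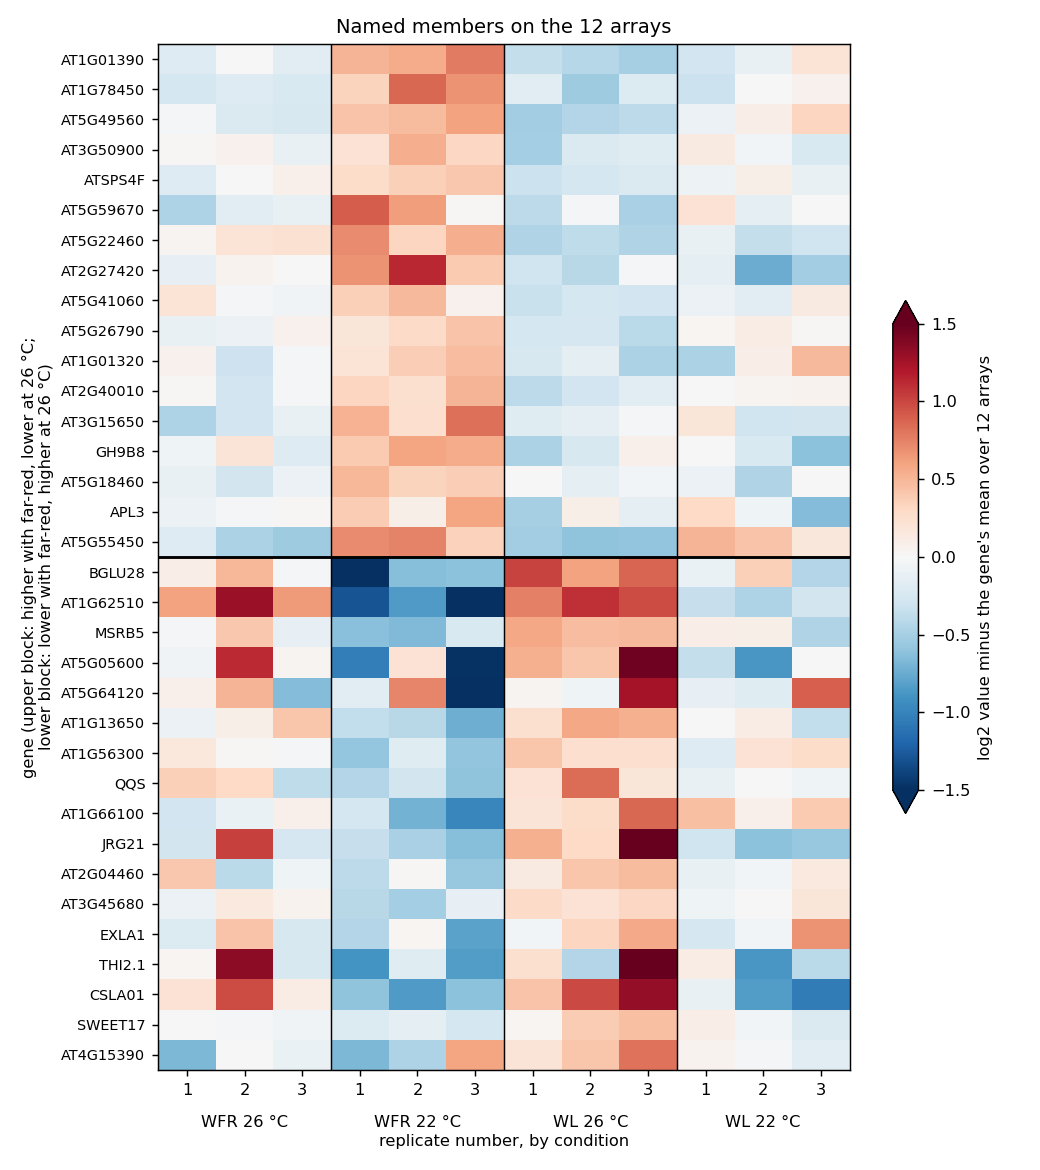
The 34 named members (rows) on the 12 arrays (columns, by condition and replicate), as log2 value minus the gene's own mean, with red above and blue below it and colours ending at 1.5 on either side. In the upper block WFR 22 °C is red and WL 26 °C mostly blue; in the lower block this is turned round, with WFR 26 °C replicate 2 and WL 26 °C replicate 3 reddest for AT5G05600, JRG21 and THI2.1.

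Several members with large differences have no gene named here. Probe set 264638_at had the largest far-red difference of all members, 2.48 ± 0.12 (SE). It read 7.43, 7.52 and 7.63 in WFR at 26 °C and 7.96, 8.15 and 7.50 in WFR at 22 °C, against 4.99, 5.26 and 5.02 in WL at 26 °C and 5.14, 5.14 and 5.76 in WL at 22 °C. Its temperature difference of -0.30 ± 0.12 was small beside this. Probe set 266142_at had the largest differences of the far-red-lower direction, -1.11 ± 0.367 and 2.53 ± 0.367 (SE), or -1.23 and 1.96 without the 2 arrays.

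WFR at 26 °C minus WL at 22 °C, the level under both treatments against neither, is the sum of the 2 average differences that chose the members and is given as a description. It had a median of -0.01 over the 75 and 0.04 over the 123. It lay within 0.2 of 0 for 55 of the 75 (73.3%) and 88 of the 123 (71.5%). These shares were below the 85.1% of all probe sets.

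The named exceptions include genes with a much larger difference for 1 signal. WFR at 26 °C minus WL at 22 °C was -0.77 for AT5G55450 and 1.21 for AT1G62510, where warmth gave the larger difference. It was 0.42 for AT5G22460 and -0.41 for AT1G66100, where far-red did.

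The averages can hide conditions in which a signal had little effect. Far-red had the same sign at both temperatures for 70 of the 75 and 112 of the 123, and reached 0.2 at both for 29 and 52. Temperature had the same sign in both lights for 69 and 114, and reached 0.2 in both for 36 and 72. The rule favours the same sign in both settings, because it asks for a large average. These counts describe the members and test nothing, and they were not made over all probe sets.

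For the far-red-higher members the median far-red difference was 0.20 at 26 °C and 0.34 at 22 °C, and the median temperature difference was -0.39 in WFR and -0.21 in WL. For the far-red-lower members the medians were -0.30 at 26 °C and -0.31 at 22 °C, and 0.38 in WFR and 0.31 in WL.

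The interaction tested whether the far-red difference depended on temperature. No member passed at an adjusted p under 0.05 (limma with Benjamini-Hochberg adjustment over all 22746 probe sets), and neither did any other probe set (0% called). The lowest adjusted p was 0.902 among members and 0.0891 among all probe sets. At an unadjusted p under 0.05, 16 of the 75 (21.3%) and 22 of the 123 (17.9%) passed, against 5.51% of all probe sets. None of these is called.

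By sign, the interaction was negative for 61 of the 75 far-red-higher members (81.3%), against 47% of all probe sets, with a median of -0.13. All 16 with an unadjusted p under 0.05 were negative. The interaction was negative for 54 of the 75 without WFR 26 °C replicate 2 and WL 26 °C replicate 3. Over the settings in which all 75 probe sets were measured, still members or not, it was negative for 52 to 63. Of the far-red-lower members 64 of 123 were positive, against 53% of all probe sets, with a median of 0.02. Among the 22 with an unadjusted limma p under 0.05, 17 were positive and 5 negative, against 699 and 555 over all probe sets. Of the 123, 77 were positive without WL 26 °C replicate 3 and 67 without both arrays. Over the settings in which all 123 probe sets were measured, still members or not, 57 to 77 were positive. For the far-red-higher members the median SD over the 3 arrays of a condition was 0.101 in WFR at 26 °C and 0.130 in WFR at 22 °C. It was 0.123 in WL at 26 °C and 0.162 in WL at 22 °C, so the conditions did not vary wholly alike. Over all probe sets it was 0.084 and 0.097 in WFR and 0.081 and 0.094 in WL, at 26 °C and 22 °C. With such spreads the rule itself can pull the interaction of far-red-higher members negative, and how far it did was not tested. All members were measured on the same arrays and are not independent, so these sign counts describe the members and test nothing.

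Among named genes the largest interactions were -0.98 ± 0.245 for AT2G27420, -0.84 ± 0.206 for AT3G15650 and -0.67 ± 0.146 for AT5G18460 in the far-red-higher direction (SE, limma adjusted p = 0.902 for each). In the far-red-lower direction they were 0.97 ± 0.355 for AT1G62510 (adjusted p = 0.902), -0.65 ± 0.464 for JRG21 (adjusted p = 0.954) and -0.59 ± 0.376 for AT4G15390 (adjusted p = 0.949, all by limma with SE). Near 0 lay AT5G41060 at -0.01 ± 0.153, AT5G26790 at 0.01 ± 0.112 and MSRB5 at 0.01 ± 0.228. A p that misses the threshold does not show that the far-red difference was alike at both temperatures.

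**Figure D5:**
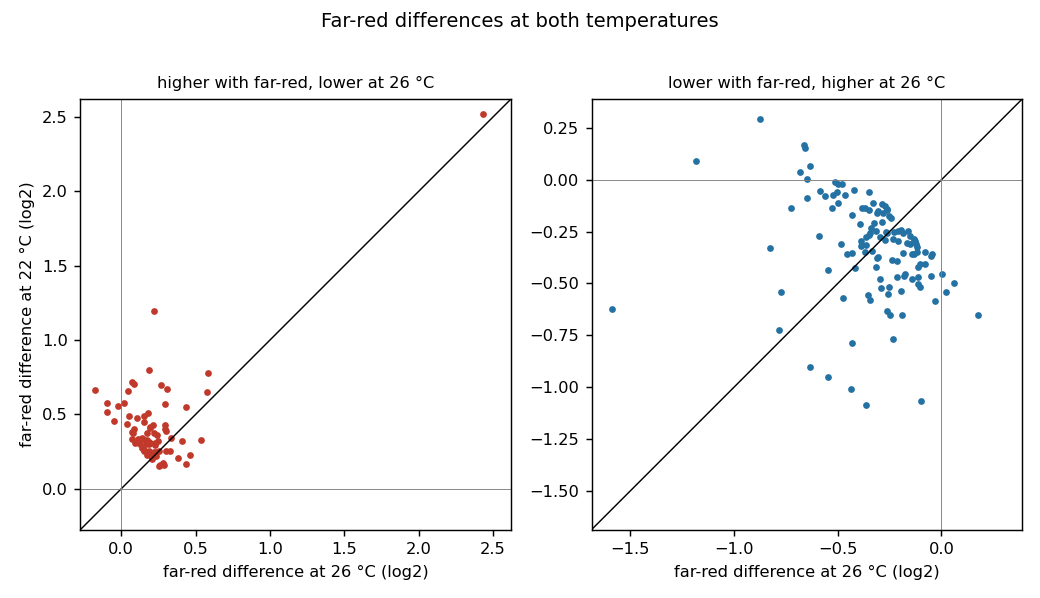
Far-red difference at 26 °C (log2, horizontal) against that at 22 °C (log2, vertical) for the 75 far-red-higher members (left) and the 123 far-red-lower members (right). The black line marks equal differences; 61 of the 75 lie above it, where the difference was larger at 22 °C, while the 123 lie on both sides.

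The average effects of all probe sets give the background for these descriptions. The model called the far-red effect higher for 188 probe sets (0.827%) and lower for 67 (0.295%), and the temperature effect higher for 664 (2.92%) and lower for 563 (2.48%). Both were called, far-red higher and temperature lower, for 11 probe sets (0.0484%), and far-red lower and temperature higher for 17 (0.0747%). Of these, 10 and 16 were members. Since the rule used both contrasts, these counts describe the members and test nothing.

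The directions differed in level. The median log2 level over all arrays was 7.39 for the far-red-higher members and 8.02 for the far-red-lower members, against 6.98 over all probe sets. The brightest 25% of all probe sets held 6 of the 75 and 45 of the 123, and the dimmest 25% held 2 and 0. The median SD within conditions was 0.151 and 0.224, against 0.105 over all probe sets. Within conditions, the mean correlation between members' deviations was 0.057 in the far-red-higher and 0.182 in the far-red-lower direction, against 0.022 over all probe sets. These correlations are across pairs of probe sets on the same 12 arrays and are given as a description.

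Some gene lists of the pathways that shade and warmth touch held members, and only genes with a named probe set count as measured. Of all probe sets, 0.33% were far-red-higher and 0.541% far-red-lower members. Far-red was called higher for 0.827% and lower for 0.295% of them, and temperature higher for 2.92% and lower for 2.48%. Their median differences were 0.01 and -0.01. The lists are short and were chosen with earlier results of these data known, so their counts describe them and test nothing. Of 8 measured genes of sucrose synthesis, breakdown and transport, ATSPS4F was a far-red-higher and SWEET17 a far-red-lower member. In that list far-red was called higher for 1 gene and temperature higher for 1 and lower for 1, with median differences of 0.08 and -0.07. Of 5 measured starch genes, APL3, a large subunit of ADP-glucose pyrophosphorylase (the first committed step of starch synthesis), was a far-red-higher member with 0.32 ± 0.141 and -0.22 ± 0.141 (SE). Its values overlapped in 3 of the 4 single comparisons, and no gene of the list was called. APL4, another large subunit, had 0.30 for far-red and -0.08 for temperature and was not a member.

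Of 12 measured cell wall genes, GH9B8, of glycosyl hydrolase family 9, was far-red-higher, and EXLA1 and CSLA01 were far-red-lower. The list had 2 genes called higher with far-red and 1 higher at 26 °C, with median differences of 0.06 and 0.03. GH9B8 read 7.96, 8.21 and 7.82 in WFR at 26 °C and 8.41, 8.61 and 8.58 in WFR at 22 °C, against 7.54, 7.77 and 8.10 in WL at 26 °C and 8.02, 7.79 and 7.40 in WL at 22 °C. The WFR 22 °C arrays stood above the rest, and its far-red difference was 0.19 at 26 °C and 0.80 at 22 °C. EXLA2, a relative of EXLA1, had a far-red difference of 0.23, the opposite sign, and was not a member.

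Of 6 measured glucosinolate genes BGLU28 alone was a member, and 3 were called higher at 26 °C, with median differences of -0.06 for far-red and 0.32 for temperature. Of 5 measured genes on the jasmonate list THI2.1 alone was a member, and 1 was called higher at 26 °C. The jasmonic acid oxygenase genes AT5G05600 and JRG21, members described above, were not on that list. Of 5 measured salicylate and immune genes AT5G55450 alone was a member, and 3 were called lower at 26 °C. BGLU28 was also the only member among 4 measured genes of nitrogen, sulfur, phosphate and iron supply, of which 2 were called higher at 26 °C.

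The lists of auxin, light signalling and clock, cold, heat, flavonoid and photosynthesis genes, and that of gibberellin, brassinosteroid and ethylene genes, held no member among 4 to 9 measured genes each. The lists are not complete: the small heat shock protein AT5G51440, a far-red-lower member given below, was not on the heat list. In the auxin list, 4 of 9 were called higher with far-red and 2 higher at 26 °C, and none lower with either. In the cold list 1 of 7 was called lower with far-red and 4 lower at 26 °C. No gene of the abscisic acid list was measured, and none of the cytokinin list, which did not hold RR16 and ARR15, left out by name above.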

How the data were processed

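RNA of aerial parts was hybridised to 12 one-colour biotin arrays, 3 per condition. The deposited table holds normalised log2 values. Per the submitters' processing notes the tools were RMA, affy and MAS5, but the notes used here do not say which of them made the table. Of 22810 probe sets, 64 controls were left out. Names came from the platform annotation, updated through RefSeq records (TAIR10.1). For 13513 probe sets 1 gene was found, of which 13436 matched RefSeq and 77 kept the platform's name. Arrays give no read depth, so their number limits the precision.

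Conditions were averaged, members taken by the rule, and a model with 1 mean per condition fitted with limma 3.58.1 in R 4.3.3 (8 residual and 5.99 prior degrees of freedom, two-sided, Benjamini-Hochberg over 22746 probe sets). The code was tested on simulated data. Members and gene lists were chosen with earlier results of these data known. Named genes are, per direction, the 12 single-gene members whose smaller difference was largest, the 3 with the largest interaction, ATSPS4F, AT5G49560 and every list member. The model did not pair arrays by replicate number, and whether same-numbered arrays were grown or handled together is not stated. Residuals of same-numbered arrays correlated at -0.259 to 0.120 over 18 pairs, with a median of -0.061. Those of other-numbered arrays correlated at -0.246 to 0.247 over 36 pairs, with a median of 0.063. A planned promoter motif count was not run. Alternatives were 4 scalings, filters, a replicate block, array weights, a trended prior and leaving out arrays.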

Additional observations from a re-analysis of the deposited data

How the results depend on the processing

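How many probe sets passed the rule depended on scaling, on filters and on single arrays. The 75 far-red-higher members became 44 with array medians subtracted, 48 with the lowest 50% of probe sets left out, and 63 to 111 when 1 array was left out, the highest number without WL 26 °C replicate 3. The 123 far-red-lower members became 186 with array medians subtracted and 93 to 182 when 1 array was left out, the lowest number without WL 26 °C replicate 3 and the highest without WFR 22 °C replicate 2. Subtracting medians moved the median far-red difference of all probe sets to -0.04, against 0.01 as reported. Leaving out WL 26 °C replicate 3 and WFR 26 °C replicate 2 together, chosen after seeing the data, gave 116 and 103 members, with 61 of the 75 and 82 of the 123 kept. It also gave 136 far-red and 466 temperature calls. The interaction had 0 calls as reported, and 2 probe sets, no members, with array weights, which gave 835 far-red and 2247 temperature calls. Leaving out 1 array gave 98 to 253 far-red calls, the lowest number without WFR 26 °C replicate 3, and 655 to 1357 temperature calls, the lowest number without WL 26 °C replicate 2. The main model did not pair arrays by replicate number, and with a replicate block there were 0 interaction, 172 far-red and 933 temperature calls. The far-red difference of THI2.1 was 0.0823 with array weights, and ran from -0.5335 to 0.1144 when 1 array was left out, the last without WL 26 °C replicate 3. The temperature difference of AT5G64120 ran from -0.0533, without WFR 22 °C replicate 3, to 0.7161. No other average difference of the 34 named genes changed sign under the alternatives run. Of the named genes, 9 of 17 far-red-higher and 10 of 17 far-red-lower stayed members in all 12 fits without 1 array and all 4 other scalings. With 3 arrays per condition the lowest member adjusted p for the interaction ran from 0.164, with array weights, to 0.99984 over the settings.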

Other observations

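The following far-red-higher members lie outside the naming rule and were picked after their values were seen, so that no group is described by them. AT5G52820, a WD40 protein related to yeast Rsa4 and Notchless, which act in assembly of the large ribosomal subunit, read 8.61, 8.52 and 8.55 in WFR at 26 °C and 8.91, 8.74 and 8.82 in WFR at 22 °C. It read 8.32, 8.36 and 8.39 in WL at 26 °C and 8.57, 8.55 and 8.69 in WL at 22 °C, with no overlap in any of the 4 single comparisons. The DEAD-box RNA helicases AT2G42520 and AT5G63120 had far-red differences of 0.29 and 0.23 and temperature differences of -0.24 and -0.26. AT3G22660, of the EBP2 family of rRNA-processing proteins, had 0.24 and -0.21, and NRPB9B, a subunit of RNA polymerase II, had 0.21 and -0.31. NRPB9B lies next to AT4G16260, a beta-1,3-glucanase gene that was a far-red-lower member with -0.27 and 0.27, although its temperature difference was -0.26 without WL 26 °C replicate 3 and WFR 26 °C replicate 2.

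Among far-red-lower members outside the rule, also picked after their values were seen, AT2G15960 had the smallest unadjusted interaction p of all members, 0.000301 by limma, with an adjusted p = 0.902. It read 9.43, 9.70 and 9.67 in WFR at 26 °C and 8.84, 8.72 and 8.89 in WFR at 22 °C, against 9.64, 9.69 and 9.56 in WL at 26 °C and 9.33, 9.40 and 9.47 in WL at 22 °C. The WFR 22 °C arrays were the lowest, and WFR and WL overlapped at 26 °C. AT2G34810, of the berberine bridge enzyme family, had a temperature difference of 0.99 and a far-red difference of -0.26, or 0.86 and -0.23 without the 2 arrays. AT5G51440, a small heat shock protein, had 0.79 and -0.30, or 0.71 and -0.19 without them.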
